A study of Mus musculus with 4 samples.

Results

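The 10 genes described here encode the IL-1 family cytokines Il1a and Il1b and their antagonist Il1rn, the cytokines Il6, Tnf and Il10, the neutrophil-attracting chemokines Cxcl1, Cxcl2 and Cxcl3, and the inflammasome sensor Nlrp3. They were chosen by symbol as inflammatory genes linked to cyclooxygenase 2 (COX2), and all 10 were among the 12584 genes of the count table. Il1a and Il1b both activate the IL-1 receptor, and Il1rn occupies that receptor without activating it. The IL-1b precursor is cut by caspase-1 once an inflammasome such as the one nucleated by Nlrp3 has formed. Cxcl1, Cxcl2 and Cxcl3 are ligands of Cxcr2, the receptor that draws neutrophils into inflamed tissue, and Tnf and IL-1 receptors both activate NF-kB. COX2, encoded by Ptgs2, is the inducible enzyme of prostaglandin synthesis, and prostaglandin E2 raises cAMP in myeloid cells, where it is known to alter the output of several of these cytokines.

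The samples were CD45+ live cells sorted from subcutaneous tumours of an ovalbumin-carrying YUMM1.7 mouse melanoma line grown in Rag2-/- mice. The line is the RTT form, which had become resistant to targeted therapy under inhibitors of the MAPK pathway. All mice received adoptive transfer of OT-1 CD8+ T cells on day 7 and tumours were taken on day 10, 72 h later. CTRL tumours grew from the line carrying an mCherry vector, and IRF3/7 tumours from the line forced to express Irf3 and Irf7 in the cancer cells. COX2i tumours were mCherry tumours of mice given celecoxib, a COX2 inhibitor, and COX2i + 5-AZA tumours were mCherry tumours of mice given celecoxib and 5-azacytidine, an inhibitor of DNA methylation. Each group was 1 library made from 3 pooled tumours, so a difference between libraries has no replicate check, no p-value is given, and every interval is a 95% interval that covers counting error only.

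The libraries held 6329 to 10032 cells and 26356819 to 78722763 UMIs (unique molecular identifiers, 1 per captured probe pair). IRF3/7 was the shallowest, with a median of 3168 UMIs a cell against 6039.5 to 7502 in the others. Levels are counts scaled to a library total of 1000000 UMIs (CPM), and 3 UMIs, the limit set by a count of 0, were worth 0.0381 to 0.114 CPM over a whole library. Levels are compared between libraries and classes for 1 gene at a time, because the number of probes per gene was not used here. Monocytes (Infl_Mono, Monocyte_1, Monocyte_3) were 1.55% of cells in CTRL, 72.6% in IRF3/7, 6.11% in COX2i and 46.7% in COX2i + 5-AZA, whereas macrophages were 83.5%, 6.94%, 74.7% and 41.0%. Neutrophils were few: 65 in CTRL, 49 in IRF3/7, 5 in COX2i and 196 in COX2i + 5-AZA, and Csf3r, Cxcr2, Retnlg, S100a8 and S100a9 were all over 2-fold above the other cells in them. The sort also left a non-immune class, Myofibrobl, with 160 to 913 cells, in which Col1a1, Col3a1 and Sparc were over 2-fold above the other cells and Pmel was not. Of the 5 monocyte markers, 4 were in the table and 3 were over 2-fold higher in monocytes, Ccr2 being the exception. Of the 29259 droplet barcodes, 4830 were found in 2 or more libraries, and 28.1% to 31.7% of each library's cells lay in such droplets.

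The promoters of the 3 chemokines are shown because these genes lie in the same region of chromosome 5, Cxcl1 and Cxcl2 close together and Cxcl3 farther off, and because their levels are compared below. Cxcl3 (ENSMUSG00000029379, GRCm38 chromosome 5, 90786103 to 90789600), Cxcl1 (ENSMUSG00000029380, 90891241 to 90893115) and Cxcl2 (ENSMUSG00000058427, 90903871 to 90905938) are all on the plus strand. RefSeq promoter windows (GRCm38.p6, 250 bases before to 50 after the start) were found for 9 of the 10 genes, as 12 windows. Capitals below mark every match to an NF-kB pattern, GGGA and TTCC 2 bases apart, on either strand and, in Il6, also the core TGACG of the cAMP response element, here read on the minus strand.
Cxcl1, chr5:90891145-90891244, plus strand: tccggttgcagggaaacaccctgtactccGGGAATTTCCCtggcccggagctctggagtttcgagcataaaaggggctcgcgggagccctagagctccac
Cxcl2, chr5:90903779-90903878, plus strand: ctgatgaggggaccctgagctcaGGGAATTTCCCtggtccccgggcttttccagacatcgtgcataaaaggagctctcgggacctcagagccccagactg
Cxcl3, chr5:90786001-90786100, plus strand: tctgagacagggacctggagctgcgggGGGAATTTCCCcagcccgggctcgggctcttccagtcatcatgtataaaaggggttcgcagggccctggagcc
Il6, chr5:30012954-30013103, plus strand: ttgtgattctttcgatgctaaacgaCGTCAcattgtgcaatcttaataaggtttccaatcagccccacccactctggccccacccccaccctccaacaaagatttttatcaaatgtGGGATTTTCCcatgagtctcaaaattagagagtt

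The 3 chemokine windows held the same run of 11 bases, GGGAATTTCCC, starting 71 bases before the start of Cxcl1, 97 before that of Cxcl2 and 73 before that of Cxcl3. It matches the pattern on both strands, so the 2 matches in each window overlap, and it was found in 12 of the 32851 RefSeq windows of this length (0.0365%). The pattern itself was found in 1.47% of all windows and in those of 4 members, the fourth being Il6 at 44 bases before its start. A narrower form, GGGA and TTTCC 1 base apart, whose matches all belong to the first pattern, was in the same 4 members and in 0.411% of all windows. Of the other patterns, GGAANNCCC was in Nlrp3 (5.82% of all windows), TGACG in Il6, Cxcl1 and Nlrp3 (20.8%), and the full cAMP response element TGACGTCA (1.79%) and an interferon response core, GAAA and GAAA 2 bases apart (3.44%), in none of the 9. A match is a description of letters and not a site of binding.

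The level of Il1b split the libraries into a low and a high pair. Over all cells Il1b (ENSMUSG00000027398, chromosome 2, 129364570 to 129371139, minus strand) was at 761 CPM in CTRL and 743 in COX2i, against 2350 in IRF3/7 and 2078 in COX2i + 5-AZA. Il1rn, the receptor antagonist, was at 201 CPM in CTRL, 383 in IRF3/7, 199 in COX2i and 506 in COX2i + 5-AZA. Both were thus low in the 2 libraries made mostly of macrophages and high in the 2 rich in monocytes, with no overlap of their intervals between the pairs. Nlrp3 was at 104, 144, 82.7 and 168 CPM in the same order. Il1a departed from the pattern, at 12.2 CPM in CTRL, 6.68 in IRF3/7, 9.83 in COX2i and 39.1 in COX2i + 5-AZA, so that it was high in a single library.

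Tnf was at 40.1 CPM in CTRL, 115 in IRF3/7, 23.2 in COX2i and 60.9 in COX2i + 5-AZA, its highest level being in IRF3/7. Il10, which restrains inflammatory cytokine output in macrophages, was also highest in IRF3/7, at 19.2 CPM against 10.9 in CTRL, 5.63 in COX2i and 8.04 in COX2i + 5-AZA. Il6 was scarce, at 1.78 CPM in CTRL (121 UMIs), 22.2 in IRF3/7 (585), 3.59 in COX2i (283) and 8.02 in COX2i + 5-AZA (612). Cxcl3 was highest in CTRL, at 18.5 CPM against 3.72 in IRF3/7, 2.81 in COX2i and 7.70 in COX2i + 5-AZA. Cxcl2 was lowest in COX2i, at 160 CPM against 368 in CTRL, 362 in IRF3/7 and 478 in COX2i + 5-AZA. Cxcl1 varied least, from 47.0 CPM in CTRL and 46.7 in IRF3/7 to 35.5 in COX2i and 30.6 in COX2i + 5-AZA.

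**Figure D1:**
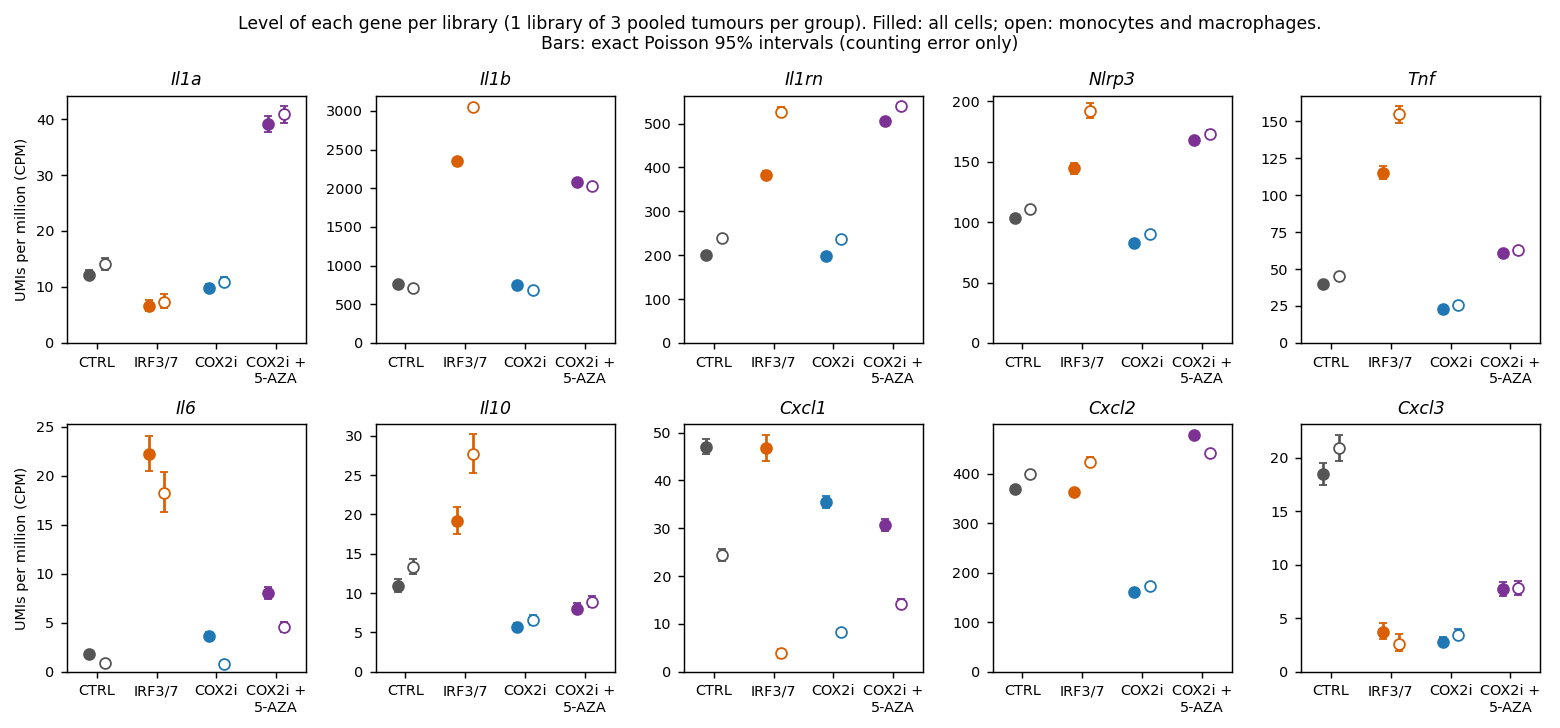
Level of the 10 genes in CPM (vertical axes start at 0) in the 4 libraries, over all cells (filled points) and within monocytes and macrophages (open points), with exact Poisson 95% intervals. Il1b and Il1rn are high in IRF3/7 and COX2i + 5-AZA, Cxcl3 is highest in CTRL, and Cxcl1 drops in every library once only monocytes and macrophages are counted.

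The class that held most of a gene's UMIs differed between genes and between libraries. In CTRL, TAM_Spp1 macrophages, which were 26.2% of cells, held 76.8% of the Cxcl3 UMIs, 58.3% of those of Cxcl2, 53.3% of those of Il1a and 52.0% of those of Il1b. In COX2i the same class was 15.5% of cells and still held 71.0% of the Cxcl3 UMIs, but 27.3% of those of Cxcl2 and 29.4% of those of Il1b. In IRF3/7 it was only 10 cells, and Infl_Mono, 68.5% of cells, held 80.5% of the Il1b UMIs and 83.6% of those of Il1rn. In COX2i + 5-AZA the largest holder of Il1b was Monocyte_1, with 41.0% of UMIs in 36.3% of cells.

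Neutrophils held far more of some members than their number. In IRF3/7 they were 0.774% of cells and held 22.7% of the Il1a UMIs, 29.6% of those of Cxcl3 and 15.3% of those of Cxcl2. In COX2i + 5-AZA, 1.95% of cells were neutrophils and held 13.9% of the Cxcl2 UMIs and 24.3% of those of Il6, the latter in only 5 cells, the highest of which carried 68 of 149 UMIs. Cxcl1 was mainly outside the immune classes: the Myofibrobl class held 57.7% of its UMIs in CTRL, 91.9% in IRF3/7, 80.5% in COX2i and 56.2% in COX2i + 5-AZA. The main holder of Il6 varied. In CTRL, Myofibrobl held 31.4% of its 121 UMIs, 38 mast cells 25.6% and TAM_Spp1 23.1%, and in COX2i Myofibrobl held 48.1%. In IRF3/7, where Il6 was highest, Infl_Mono held 54.7% and Myofibrobl 38.3%.

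**Figure D2:**
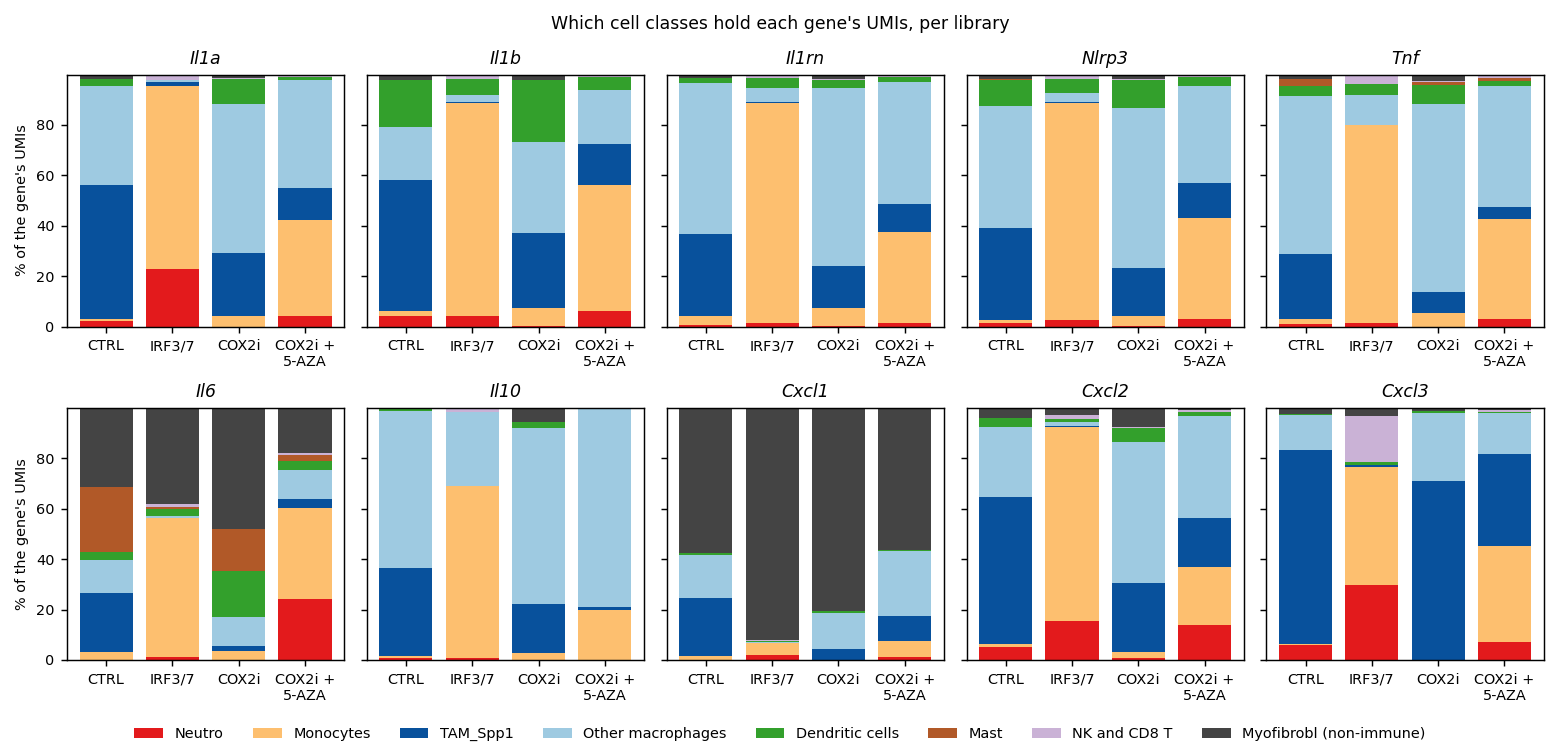
Percent of each gene's UMIs held by groups of cell classes in each library (stacked bars sum to 100%). TAM_Spp1 holds most of Cxcl3 in CTRL (76.8%) and COX2i (71.0%), and Myofibrobl holds most of Cxcl1 in all 4 libraries (56.2% to 91.9%).

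Ordered by the mean level over libraries with at least 50 cells of a class, neutrophils came first for 7 of the 10 genes, namely Il1a, Il1b, Il6, Tnf, Cxcl2, Cxcl3 and Nlrp3, although only CTRL and COX2i + 5-AZA held 50 neutrophils. In CTRL alone they were not first for Il6, with 0 UMIs, nor for Tnf, at 71.3 CPM against 72.3 in Infl_Mono. Only for Il1b and Cxcl2 did both neutrophil values lie above the range of the next class. Il1b in neutrophils was at 7080 CPM in CTRL and 13885 in COX2i + 5-AZA, and both values lay above every other class with at least 50 cells. Next came Monocyte_3, cDC2, TAM_Spp1, CCR7+ DC, Monocyte_1 and Infl_Mono, whose ranges overlapped their neighbours in that order. cDC2, the dendritic cells that present antigen to CD4+ T cells, held Il1b at 2418 CPM in IRF3/7, 3379 in CTRL, 3987 in COX2i and 4748 in COX2i + 5-AZA. Cxcl2 in neutrophils was at 4181 and 7009 CPM, clear of TAM_Spp1 (504 to 1410) and Macro (815 to 1122), whose ranges overlapped. For Cxcl3 the order was neutrophils (56.9 to 243 CPM) and TAM_Spp1 (23.0 to 93.1), which overlapped, and then a step to Monocyte_1 (0 to 12.7).

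Il1rn had its highest mean in CCR7+ DC (688 CPM in IRF3/7 and 604 in COX2i + 5-AZA, the only libraries with 50 of these cells), but in COX2i + 5-AZA itself TAM_Spp1 (834 CPM) and neutrophils (713 CPM) were higher. In the order of means CCR7+ DC, TAM_Spp1, Infl_Mono, Monocyte_1 and neutrophils each overlapped the next in range. In UMIs of Il1rn per UMI of Il1b, a ratio of counts that depends on the probes of both genes, neutrophils were at 0.0412 in CTRL and 0.0514 in COX2i + 5-AZA, cDC2 at 0.0287 to 0.0814, TAM_Spp1 at 0.153 to 0.165, and TAM_C1q at 0.589 to 0.849. Infl_Mono had 0.628 Il1rn UMIs per Il1b UMI in CTRL and 0.528 in COX2i, but 0.169 in IRF3/7 and 0.187 in COX2i + 5-AZA. Il1rn in Infl_Mono lay between 520 and 573 CPM in the 4 libraries, while Il1b went from 828 CPM in CTRL and 1012 in COX2i to 3383 in IRF3/7 and 2916 in COX2i + 5-AZA.

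Cxcl1 was highest in Myofibrobl (191 to 466 CPM), with no overlap with the next class, Macro (65.8 and 103). In Macro of CTRL, 41 of 51 UMIs were in 1 cell. Il10 had its highest mean in TAM_H2Ab1 (71.7 CPM in IRF3/7 and 18.6 in COX2i + 5-AZA), followed by Macro (18.1 in CTRL and 41.8 in COX2i + 5-AZA), so that in the single library with 50 cells of both the order was the other way. Il10 was at 0 in CCR7+ DC, Monocyte_3 and cDC1 wherever these reached 50 cells. The order of Tnf had few steps: after neutrophils, TAM_H2Ab1 was at 175 CPM in IRF3/7 and 82.4 in COX2i + 5-AZA, and each class overlapped the next down to NK cells (17.9 to 49.8). Mast cells, under 50 in every library, carried Tnf at 236 CPM in CTRL (75 UMIs in 38 cells), 227 in COX2i (24 UMIs) and 282 in COX2i + 5-AZA (59 UMIs).

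**Figure D3:**
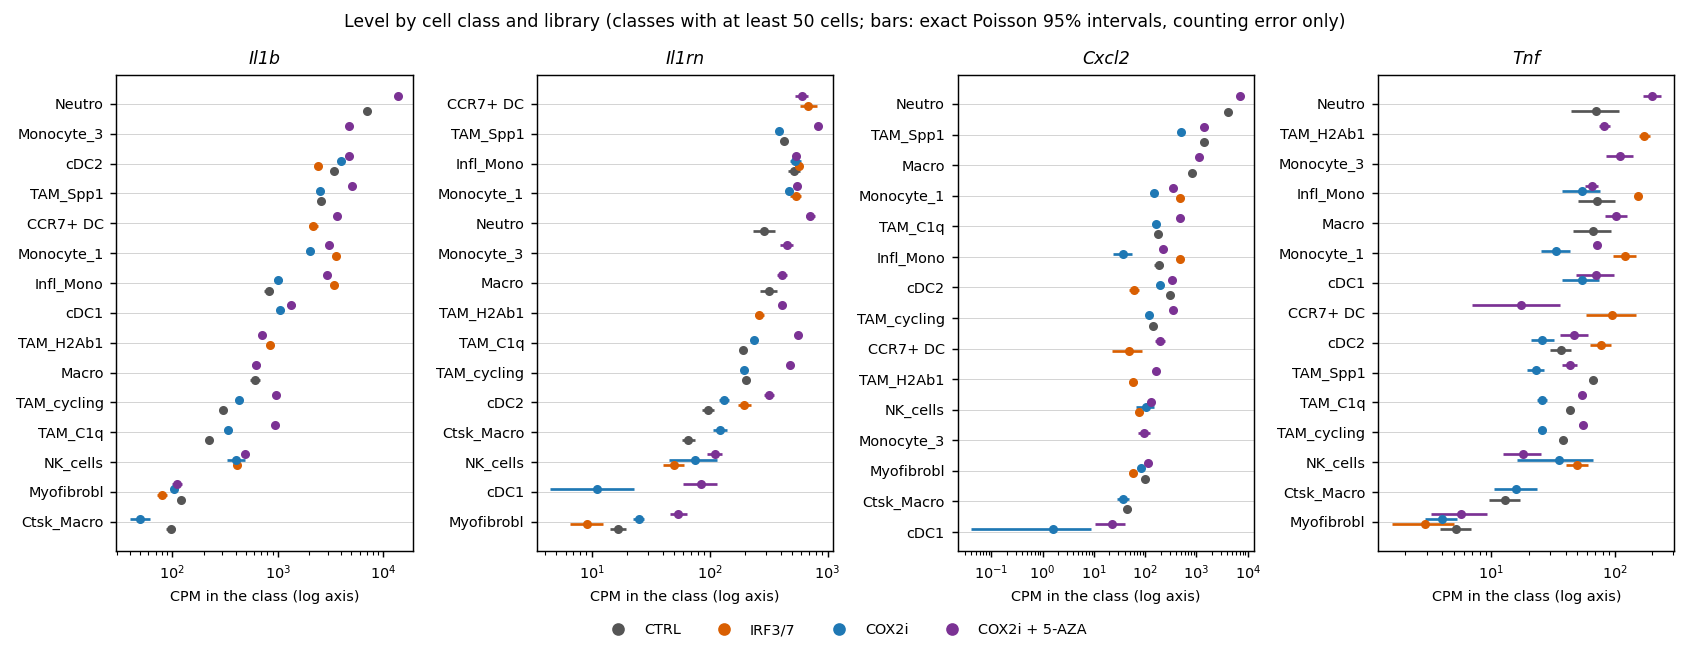
Level in CPM (log axis) of Il1b, Il1rn, Cxcl2 and Tnf in each cell class with at least 50 cells, 1 point per library with an exact Poisson 95% interval, classes ordered by mean level. Neutrophils stand clear for Il1b (7080 and 13885 CPM) and Cxcl2 (4181 and 7009 CPM), whereas the classes overlap for Il1rn and Tnf.

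NK cells, which should lack these myeloid transcripts, gave the background for shares of cells with a UMI. With each cell thinned to 2000 UMIs, Il1b was found in 18.8% of NK cells in IRF3/7, 19.4% in COX2i and 29.2% in COX2i + 5-AZA, against 69.3%, 33.9% and 66.4% of monocytes and macrophages. Before thinning the NK shares were 23.2%, 14% and 32.7%, at median depths of 2674.5, 3099 and 2606 UMIs, and those of monocytes and macrophages 77.0%, 48.0% and 81.2%, at 3148, 7611.5 and 6300 UMIs. Shallower cells were left out, 159, 19 and 146 NK cells and 975, 187 and 492 monocytes and macrophages, and CTRL had only 11 NK cells. The COX2i share rested on 6 of 31 NK cells (7.45% to 37.5%), too few to set a small difference against. In TAM_C1q the thinned share of Il1b was 20.3% in COX2i and 41.6% in COX2i + 5-AZA, and 33.2% and 65.0% before thinning. Cxcl2 was found in 3.23% to 6.19% of NK cells after thinning, against 10.2% to 22.3% of monocytes and macrophages in those 3 libraries.

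Across the 40 sums of class and library with at least 50 cells, Pearson's r of log2(CPM + 1) between members described which of them kept the same order. Il1b and Nlrp3 were closest (r = 0.88), followed by Il1rn and Nlrp3 (0.74), Tnf and Nlrp3 (0.73), Il1a and Cxcl2 (0.72) and Cxcl2 and Cxcl3 (0.71), and Il1b and Il1rn were at 0.65. Cxcl1 and Il6 had the lowest values with other members. Cxcl1 was at 0.36 with Cxcl2 and 0.32 with Cxcl3 and below 0 with Il1b (-0.32) and Tnf (-0.45). Il6 was at 0.34 with Cxcl1, 0.25 with Cxcl2, -0.03 with Tnf and -0.22 with Il10. Cxcl1 was highest in Myofibrobl, and Cxcl2 and Cxcl3 in neutrophils, though the 3 promoters hold the same 11 bases. These sums share libraries, and classes differ in depth and size, so the values are descriptions.

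Among genes that are not members, the 3 with the highest r were Pde4b, a cAMP phosphodiesterase, Mcemp1 and Pim1 for Il1b (0.92 each), Picalm (0.93), Slc15a3 (0.90) and Gpr35 (0.90) for Nlrp3, and Slc15a3 (0.89), Cybb (0.88) and Rhog (0.88) for Il1rn. Il1a was most like Pygl (0.82), Cd14 (0.79) and Osm (0.78), Tnf like Slfn2 (0.91), Themis2 (0.89) and Atp8a1 (0.89), and Il10 like C3ar1 (0.85), Gdf3 (0.82) and Itm2b (0.81). Cxcl2 was most like Ets2 (0.83), Rabgef1 (0.80) and Plk2 (0.80), Cxcl3 like Pxn (0.68), Clec4d (0.67) and Rabgef1 (0.66), Cxcl1 like Ctxn1, Btc and Phlda1 (0.77 each), and Il6 like Nfkbia (0.73), Tgif1 (0.67) and Gfpt2 (0.66). With a pseudocount of 10 in place of 1, none of the 3 genes remained for Il6, Cxcl1 and Cxcl3.

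The comparison of COX2i with CTRL set cells from celecoxib-treated tumours beside those from control tumours. Cxcl2 and Cxcl3 were at least 2-fold lower in COX2i, and Il1b and Il1rn were nearly level. Tnf was at a log2 ratio of -0.79 over all cells and -0.80 within monocytes and macrophages, and Cxcl1 and Il10 were at -0.41 and -0.96 over all cells, all within a factor of 2. Within monocytes and macrophages, 4 of 10 members (Cxcl1, Cxcl2, Cxcl3 and Il10) were at least 2-fold lower, against 4.7% of the 11905 genes with at least 20 UMIs, and none was at least 2-fold higher (1.93% of genes). With the class mix of CTRL, Cxcl2 (-0.94) and Il10 (-0.84) fell under 2-fold, as they did with only cells over 2000 genes. Il10 did so too with droplet barcodes found in 1 library alone (-0.82). Over all cells, 2 members (Cxcl2 and Cxcl3) were at least 2-fold lower (3.16% of 12182 genes) and Il6 was at least 2-fold higher (2.45%). The Il6 call, at a log2 ratio of 1.01, was lost without the highest cell of each library (0.95), without Myofibrobl (0.62), with size factors and with the mean over cells, and 61 of its 283 UMIs in COX2i were in 1 Myofibrobl cell and 45 in 1 cDC2 cell. Within monocytes and macrophages Cxcl3 was at 3.47 against 20.9 CPM, a log2 ratio of -2.59 (-2.80 to -2.38). Cxcl1 was at 8.24 against 24.3 CPM (-1.56, -1.71 to -1.42) and Cxcl2 at 172 against 400 CPM (-1.21, -1.25 to -1.18). All 3 ligands were thus lower, by different amounts. Il1b was at 680 against 706 CPM (-0.05, -0.07 to -0.03) and Il1rn at 237 against 239 CPM (-0.01, -0.04 to 0.02).

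TAM_Spp1, present in both libraries with 1412 and 2347 cells, had more members past 2-fold than the pooled cells. In it 5 members (Il6, Tnf, Cxcl1, Cxcl2 and Cxcl3) were at least 2-fold lower in COX2i, against 3.17% of 10652 genes, and none at least 2-fold higher (1.55%). Cxcl2 was at 504 against 1410 CPM (log2 ratio -1.48, -1.54 to -1.43), Cxcl3 at 23.0 against 93.1 (-2.02, -2.27 to -1.77) and Cxcl1 at 17.7 against 71.0 (-2.003, -2.29 to -1.72). Tnf was at 22.8 against 67.3 CPM (-1.56, -1.82 to -1.31), whereas Il1b was at 2520 against 2598 CPM (-0.04, -0.07 to -0.02) in the same cells. With cells thinned to 2000 UMIs, 20.0% of TAM_Spp1 cells had a Cxcl2 UMI in COX2i and 43.0% in CTRL (25.1% and 51.4% before thinning), while Il1b was found in 69.9% and 65.4%. Il6 rested on 6 and 28 UMIs. The 5 neutrophil markers S100a8, S100a9, Csf3r, Cxcr2 and Retnlg summed to 76.0 CPM in TAM_Spp1 of COX2i and 198 in that of CTRL, and their part in the differences was not tested.

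Outside TAM_Spp1 the chemokines parted. In TAM_C1q, Cxcl1 (4.20 against 12.7 CPM, log2 ratio -1.60) and Cxcl3 (1.82 against 6.01, -1.72) were lower in COX2i, the only 2 members at least 2-fold lower there (3.86% of 11273 genes, with none higher beside 1.61%), but Cxcl2 was nearly level (163 against 176 CPM, -0.11, -0.18 to -0.04). Il1b was higher in TAM_C1q (342 against 227 CPM, 0.59) and TAM_cycling (429 against 304 CPM, 0.50), both within a factor of 2. NK cells, read above as background, held Il1b at 404 CPM in COX2i (330 to 490), but 66 of those 103 UMIs were in 1 cell. That value is too uncertain to set the TAM_C1q and TAM_cycling levels against. In TAM_cycling, 9 members had enough UMIs and Cxcl3 alone was at least 2-fold lower (2.75% of 11389 genes), at 20 against 28 UMIs in 3164 and 1457 cells, and none was higher (1.62%). In Myofibrobl, the main holder of Cxcl1, that gene was at 192 CPM in COX2i and 191 in CTRL (0.01, -0.08 to 0.10). Over all monocytes and macrophages the same markers summed to 49.1 CPM in COX2i, against 137 in CTRL, 1210 in IRF3/7 and 550 in COX2i + 5-AZA, with Cxcr2 and Retnlg at 0.24 and 0.48 CPM. Their part in the differences was not tested.

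The comparison of COX2i + 5-AZA with COX2i set 5-azacytidine with celecoxib beside celecoxib alone, and it shares the COX2i library with the comparison above. Over all cells 8 of 10 members (all but Cxcl1 and Il10) were at least 2-fold higher, against 6.85% of 12264 genes, and none was at least 2-fold lower (11.9%). With the class mix of COX2i, Il1b (1.48 to 0.92) and Nlrp3 (1.02 to 0.78) fell under 2-fold and Cxcl1 passed it (-0.21 to 1.25). Within monocytes and macrophages 7 (Il1a, Il1b, Il1rn, Il6, Tnf, Cxcl2 and Cxcl3) were at least 2-fold higher (6.16% of 11940 genes) and none at least 2-fold lower (9.77%), and the median member was at a log2 ratio of 1.23 beside -0.19 for all genes tested. Il1a was at 40.8 against 10.9 CPM (log2 ratio 1.90, 1.78 to 2.02), Il1b at 2030 against 680 CPM (1.58, 1.56 to 1.59) and Cxcl2 at 442 against 172 CPM (1.36, 1.33 to 1.39). Cxcl1 and Nlrp3 were higher by less, at 14.2 against 8.24 CPM (0.79, 0.63 to 0.94) and 173 against 90.2 CPM (0.94, 0.90 to 0.99). Il6 rested on 312 against 48 UMIs, 82 of the 312 in 1 cell.

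The members past 2-fold differed between the macrophage classes that both libraries shared. Il1a, Il1b, Il1rn, Il6 and Cxcl2 were at least 2-fold higher in all 3, with Cxcl1 as the sixth in TAM_Spp1 (3.12% of 10203 genes). Those 5 were joined by Tnf, Cxcl1 and Cxcl3 in TAM_C1q, making 8 (4.16% of 11068 genes), and by Tnf, Cxcl3 and Il10 in TAM_cycling, also making 8 (4.1% of 11381 genes). Il1b in TAM_Spp1 passed narrowly (1.002, and 0.99 without the highest cell of each library). Il6 rested on 23 against 6 UMIs in TAM_Spp1, 22 against 10 in TAM_C1q and 25 against 15 in TAM_cycling. In TAM_C1q, 5 of the 10 were in 1 cell. The highest Il6 levels of TAM_C1q (1.57 CPM) and TAM_cycling (1.38 CPM) lay under the highest of NK cells (3.16 CPM). At least 2-fold lower were Il10 in TAM_Spp1 (5.73%) and none in TAM_C1q (5.56%) or TAM_cycling (6.02%). Il1a was higher in all 3, with log2 ratios of 1.42 in TAM_Spp1, 1.95 in TAM_C1q and 2.21 in TAM_cycling, and Cxcl2 likewise with 1.48, 1.55 and 1.52. Il10 went the other way in TAM_Spp1, with 6 UMIs in 857 cells (1.19 CPM) against 86 UMIs in 1412 cells (12.6 CPM), a log2 ratio of -3.40 (-4.89 to -2.22). In TAM_cycling Il10 was higher (12.3 against 5.21 CPM, 1.24, 0.96 to 1.53) and in TAM_C1q it was at 9.86 against 6.90 CPM (0.51, 0.14 to 0.89). TAM_Spp1 had held 25.1 CPM of Il10 in CTRL, so the 3 libraries with this class stood in the order CTRL, COX2i, COX2i + 5-AZA. In Monocyte_1, 6 members were at least 2-fold higher (3.44% of 10421 genes) and none at least 2-fold lower (5.46%), among them Il1a (48.8 against 10.2 CPM) and Cxcl2 (356 against 150 CPM), while Il1b differed by 0.60 (3082 against 2029 CPM). Of those 6, Il6 and Cxcl3 had 0 UMIs in COX2i and Cxcl1 had 2, and 107 of its 250 Cxcl2 UMIs were in 1 cell. Of the 134 Il6 UMIs in COX2i + 5-AZA, 82 were in 1 cell, and without that cell the bound on its log2 ratio was 0.45, under 2-fold. The 5 neutrophil markers summed to more in COX2i + 5-AZA than in COX2i in each of these classes, at 360 against 76.0 CPM in TAM_Spp1, 111 against 37.5 in TAM_C1q, 95.7 against 30.3 in TAM_cycling and 574 against 157 in Monocyte_1. Their part in the differences was not tested.

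**Figure D4:**
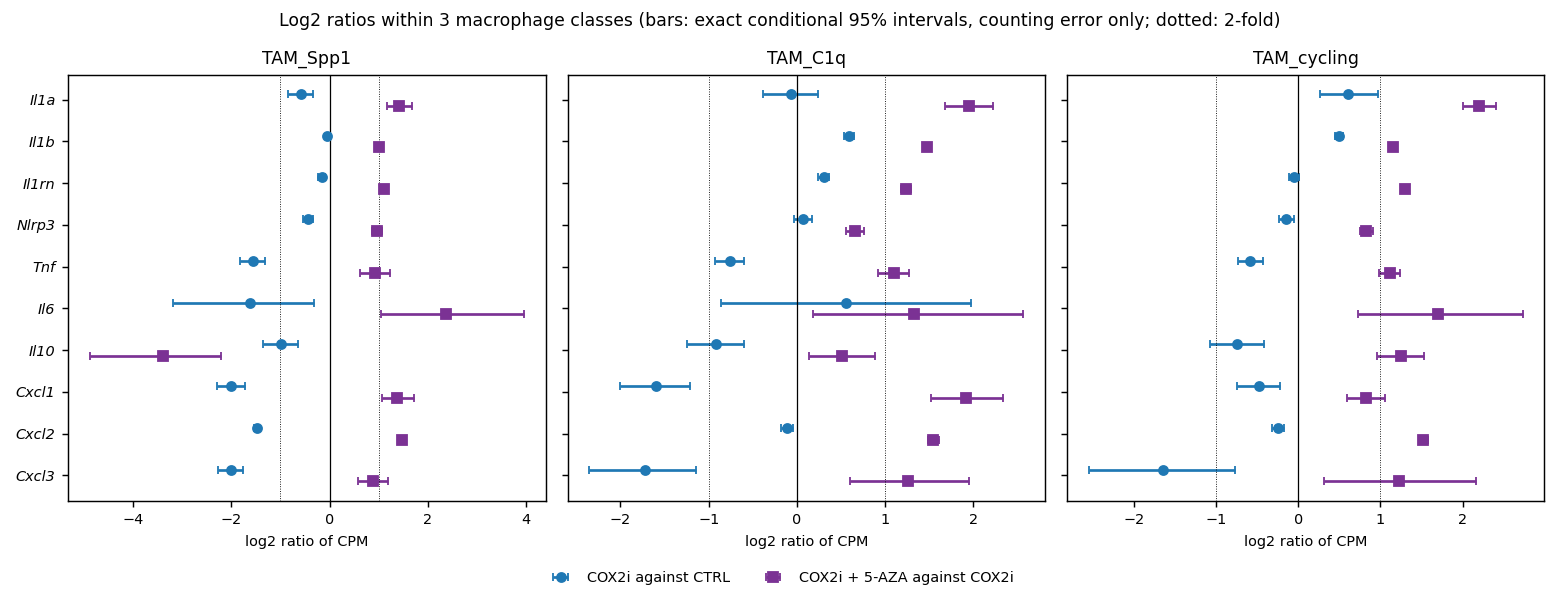
Log2 ratios of CPM for the members with at least 20 UMIs in 3 macrophage classes, COX2i against CTRL (circles) and COX2i + 5-AZA against COX2i (squares), with exact conditional 95% intervals and 2-fold marked by dotted lines. In TAM_Spp1 the chemokines and Tnf lie left of -1 in COX2i while Il1b sits at -0.04, and Il10 is the only member left of 0 in COX2i + 5-AZA (-3.40).

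Set against CTRL rather than COX2i, COX2i + 5-AZA was high in IL-1 genes, and over all monocytes and macrophages no chemokine was at least 2-fold higher. Within monocytes and macrophages 4 members (Il1a, Il1b, Il1rn and Il6) were at least 2-fold higher (5.65% of 12001 genes) and Cxcl3 at least 2-fold lower (11.3%), and the same members were counted over all cells, where 6.49% and 11.4% of 12266 genes passed. Il1a was at 40.8 against 14.1 CPM (log2 ratio 1.53), Il1b at 2030 against 706 CPM (1.52) and Il1rn at 541 against 239 CPM (1.18). Cxcl2 was at 442 against 400 CPM (0.14, 0.12 to 0.17) and Cxcl3 at 7.82 against 20.9 CPM (-1.42, -1.57 to -1.27). In TAM_Spp1, Cxcl2 was at 1403 CPM in COX2i + 5-AZA and 1410 CPM in CTRL (-0.01, -0.05 to 0.03), Cxcl1 at 46.3 and 71.0 CPM and Cxcl3 at 42.5 and 93.1 CPM, while Il1b was at 5049 and 2598 CPM (0.96). There Cxcl3 and Il10 were the 2 members at least 2-fold lower (7.41% of 10523 genes), and none was at least 2-fold higher (2.88%).

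TAM_C1q and TAM_cycling had more members at least 2-fold higher than TAM_Spp1 in this comparison. In both, 5 members (Il1a, Il1b, Il1rn, Il6 and Cxcl2) were at least 2-fold higher (3.73% of 11307 and 4.4% of 11174 genes) and none at least 2-fold lower (7.63% and 7.75%). Il6 rested on 22 against 10 UMIs in TAM_C1q and 25 against 2 in TAM_cycling. In TAM_Spp1, without the highest cell of each library, Il1b and Il1rn were at 0.95, Il1a at 0.81 and Cxcl2 at -0.04. Cxcl2 in TAM_C1q was at 477 CPM in COX2i + 5-AZA, 176 in CTRL and 163 in COX2i. The largest ratio of a member with over 50 UMIs in both libraries was that of Il1a in TAM_cycling, at 39.3 against 5.59 CPM (2.81, 2.49 to 3.15).

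In Myofibrobl, 4 of 9 members (Il1a, Il1rn, Il6 and Cxcl1) were at least 2-fold higher in COX2i + 5-AZA than in CTRL (5.53% of 10753 genes) and none lower (2.16%), and the same 4 were higher than in COX2i (2.98% of 10925 genes) with none lower (2.67%), though Il1rn against COX2i fell under 2-fold without the highest cell of each library (1.12 to 0.87). Il1a rested on 18 UMIs against 14 in CTRL and 12 in COX2i, and 68 of the 109 Il6 UMIs of COX2i + 5-AZA were in 1 cell. Il1rn reached 54.4 CPM in Myofibrobl, under the highest level of NK cells (110 CPM). Cxcl1 was at 466 CPM in COX2i + 5-AZA against 191 in CTRL (1.28, 1.18 to 1.39) and 192 in COX2i. Cxcl1 over all cells was nonetheless lower than in CTRL (log2 ratio -0.62), and Myofibrobl was 1.59% of cells in COX2i + 5-AZA and 6.19% in CTRL. In neutrophils, with 196 and 65 cells, 5 of the 9 members with enough UMIs were at least 2-fold higher (Il1a, Il1rn, Il6, Tnf and Cxcl1, 7.58% of 6216 genes) and Cxcl3 at least 2-fold lower (56.9 against 243 CPM, 19.4%). The Il6 call was a bound, set by 149 against 0 UMIs. The 5 neutrophil markers summed to 94138 CPM in COX2i + 5-AZA and 25584 in CTRL, and their part in the differences was not tested. Tnf in neutrophils was at 203 against 71.3 CPM (1.51, 0.86 to 2.23) and Il1b at 13885 against 7080 CPM (0.97, 0.90 to 1.04).

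Smaller classes gave counts on few UMIs. In COX2i against CTRL, Cxcl1 (0 against 31 UMIs, 28 of them in 1 cell) and Cxcl2 (23 against 89) were at least 2-fold lower in Infl_Mono (3.95% of 6839 genes) and none of 6 members was higher (3.7%). In Myofibrobl, Il6 and Il10 were at least 2-fold higher (4.54% of 11068 genes) and Cxcl3 lower (1.18%), on 136 against 38, 24 against 2 and 3 against 31 UMIs. In cDC2, Il1a (22.7 against 8.98 CPM, 1.34, 0.67 to 2.05) and Il6 (47 against 4 UMIs, 45 of the 47 in 1 cell) were at least 2-fold higher (3.52% of 9747 genes) and none lower (1.43%). None of 6 members passed 2-fold in Ctsk_Macro, where 4.02% of 9634 genes were higher and 2.49% lower.

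In COX2i + 5-AZA, Infl_Mono held Il1b and Cxcl2 at least 2-fold above COX2i (4.08% of 8823 genes) and Il10 below (6.62%), and held Il1a, Il1b, Il6 and Nlrp3 above CTRL (6.06% of 8782 genes) and Cxcl1 below (10.8%). In Infl_Mono of CTRL, Il1a and Il6 had 3 UMIs each, and 28 of the 31 Cxcl1 UMIs were in 1 cell. Of the 83 Il6 UMIs in Infl_Mono of COX2i + 5-AZA, 46 were in 1 cell. Il1rn was the only member at least 2-fold higher in cDC2, at 319 CPM against 97.0 in CTRL (4.4% of 9298 genes) and 132 in COX2i (3.44% of 9468 genes), while Il6 there was lower than in COX2i (2 against 47 UMIs, 7.95%) and none was lower than in CTRL (7.07%). Against COX2i, Il1rn (38 against 7 UMIs) and Nlrp3 (58 against 36) were at least 2-fold higher of 4 members in cDC1 (2.82% of 7246 genes, none lower beside 6.35%), and Nlrp3 of 5 in NK cells (7.82% of 8846 genes, none lower beside 3.9%), on 76 against 4 UMIs. Of the 58 Nlrp3 UMIs in cDC1, 16 were in 1 cell, and without the highest cell of each library that log2 ratio was 0.80, under 2-fold. The Il10 call in Infl_Mono against COX2i, on 21 against 7 UMIs, went from -1.10 to -0.23 in the same way. In Macro, Il10 alone was at least 2-fold above CTRL (6.8% of 7474 genes) and none below (5.37%).

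The comparison of IRF3/7 with CTRL set cells from tumours with forced Irf3 and Irf7 beside those from control tumours, the non-immune Myofibrobl class included. Il1b, Il6 and Tnf were higher, Cxcl3 was lower, and Il1a was at 6.68 against 12.2 CPM. Over all cells Il1b, Il6 and Tnf were at least 2-fold higher (10.8% of 12175 genes) and Cxcl3 at least 2-fold lower (15.9%). Within monocytes and macrophages 5 members (Il1b, Il1rn, Il6, Tnf and Il10) were at least 2-fold higher (9.16% of 11793 genes), and Cxcl1 and Cxcl3 at least 2-fold lower (32.2%), the median of all genes being at -0.55. Of the 5, Il1rn was at 1.14, and at 0.14 in Infl_Mono, the only class of these with 50 cells in both libraries. Over monocytes and macrophages together, Il1b was at 3053 against 706 CPM (log2 ratio 2.11, 2.09 to 2.13), Tnf at 155 against 45.1 CPM (1.78, 1.7 to 1.86) and Il6 at 18.3 against 0.88 CPM (4.38, 3.94 to 4.85, 326 and 48 UMIs). Cxcl1 was at 3.81 against 24.3 CPM (-2.68) and Cxcl2 at 424 against 400 CPM (0.08), a value whose sign turned under 4 of the alternatives.

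The 2 libraries shared few classes, so class and condition cannot be told apart for most cells. Only Infl_Mono (4335 and 93 cells), cDC2 (390 and 645) and Myofibrobl (172 and 554) reached 50 cells in both, and in CTRL they held 21.3% of the Il1b UMIs and 3.19% of those of Cxcl3. Within Infl_Mono, 6 members (Il1b, Il6, Tnf, Cxcl2, Nlrp3 and Il10) were at least 2-fold higher in IRF3/7 (6.37% of 9690 genes) and Cxcl1 and Cxcl3 at least 2-fold lower (17.9%). Il1b was at 3383 against 828 CPM (2.03, 1.89 to 2.18) and Nlrp3 at 214 against 76.4 CPM (1.48, 1.02 to 1.99). In CTRL, 28 of the 31 Cxcl1 UMIs in Infl_Mono were in 1 cell, and without the highest cell of each library that log2 ratio went from -3.93 to -0.80. In Infl_Mono of CTRL, Il6 and Cxcl3 rested on 3 UMIs each and Il10 on 4, and the intervals of Cxcl3 (-2.96 to 1.04) and Il10 (-0.01 to 3.25) included 0. The 5 neutrophil markers in Infl_Mono summed to 304 CPM in CTRL, 362 in COX2i, 1389 in IRF3/7 and 4916 in COX2i + 5-AZA, and their part in the differences was not tested.

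cDC2 and Myofibrobl differed from the monocytes. In cDC2, Il1b was lower in IRF3/7 (2418 against 3379 CPM, log2 ratio -0.48, -0.54 to -0.42) and Cxcl2 much lower (60.3 against 312 CPM, -2.37, -2.72 to -2.04), while Tnf (77.8 against 36.6 CPM, 1.09) and Il1rn (197 against 97.0 CPM, 1.02) were higher. These made 2 of 6 members at least 2-fold higher (6.01% of 9225 genes) and, with Il1a at 0 against 25 UMIs, 2 at least 2-fold lower (17.5%). In Myofibrobl, Il6 was at 49.95 against 3.94 CPM (3.66, 3.16 to 4.20), the only member at least 2-fold higher of the 8 with enough UMIs (6.07% of 10778 genes), while Cxcl3 (3 against 31 UMIs) and Nlrp3 (5.58 against 14.1 CPM) were at least 2-fold lower (12% of genes). Of the 38 Il6 UMIs of CTRL in that class, 22 were in 1 cell. Both Nlrp3 values lay below the range of NK cells (15.7 to 40.1 CPM). Cxcl1 in Myofibrobl was at 252 against 191 CPM (0.40, 0.29 to 0.51).

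**Figure D5:**
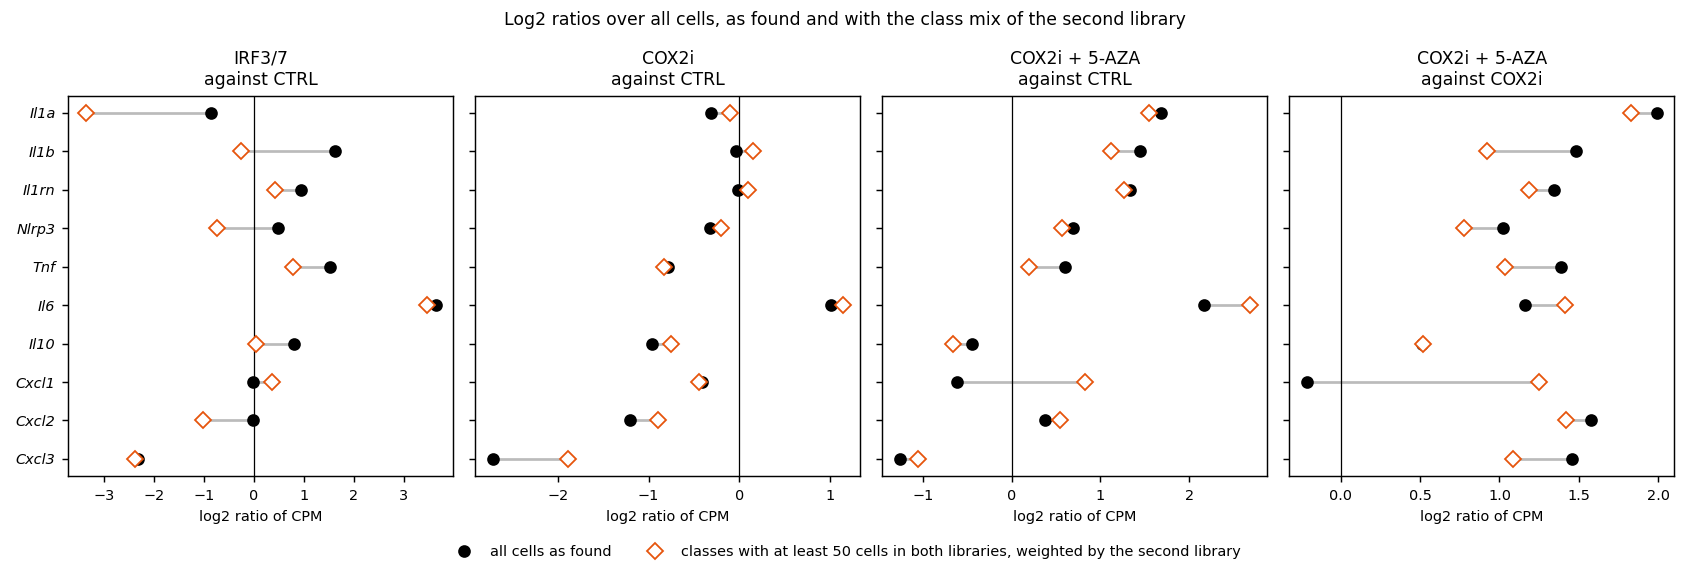
Log2 ratios of the 10 genes over all cells as found (filled circles) and over classes with at least 50 cells in both libraries when these are weighted by the second library's mix (open diamonds). Il1b in IRF3/7 against CTRL moves from 1.63 to -0.26, on classes holding 21.3% of its CTRL UMIs, and Cxcl1 in COX2i + 5-AZA against COX2i from -0.21 to 1.25, whereas the COX2i against CTRL values move by less than 1.

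The ratios were also taken over shared classes weighted by the reference library's mix, which changes the weights and leaves out every class without 50 cells in both libraries. For COX2i against CTRL, 7 classes held 92.3% or more of the Cxcl2 UMIs, and Cxcl2 stayed lower (log2 ratio -0.89 against -1.20 as found) and so did Cxcl3 (-1.88 against -2.72). For COX2i + 5-AZA against COX2i, 9 classes were shared, and Il1b was at 0.92 (1.48 as found), Il1a at 1.83 (1.99), Tnf at 1.04 (1.39) and Cxcl2 at 1.42 (1.58). Cxcl1 changed most there, from -0.21 to 1.25. For IRF3/7 against CTRL, Il1b went from 1.63 to -0.26 and Nlrp3 from 0.48 to -0.74, on classes holding 21.3% and 12.8% of those UMIs in CTRL, while Il6 stayed at 3.47 (3.64 as found). Those all-cells weights came from CTRL, where cDC2 (645 cells) and Myofibrobl (554) outnumbered Infl_Mono (93). Among monocytes and macrophages Infl_Mono was the single shared class, with 91.4% of the Il1b UMIs of IRF3/7 and 1.04% of those of CTRL, and there Il1b was at 2.03 (2.11 as found), Tnf at 1.12 (1.78) and Nlrp3 at 1.48 (0.80), whereas Il1rn was at 0.14 (1.14). Class and condition cannot be told apart here.

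The other genes of these pathways were read from 8 lists holding 90 genes, of which 87 were in the table and 86 had at least 20 UMIs within monocytes and macrophages in every comparison. In COX2i against CTRL, 2 listed genes were at least 2-fold higher and 6 at least 2-fold lower, with a median log2 ratio of -0.11 beside 0.01 for all genes. Of all genes, 1.93% were higher and 4.7% lower, so both counts lay near the background. The list of neutrophil chemokines, receptors and growth factors held 3 of these 6 among 8 genes tested: the platelet chemokines Ppbp (6.22 against 56.2 CPM, log2 ratio -3.17) and Pf4 (736 against 1706 CPM, -1.21), and Cxcr2. Also lower were Il11, an IL-6 family cytokine (3.17 against 10.2 CPM, -1.68), and Nfkbia, the NF-kB inhibitor that NF-kB itself induces (199 against 405 CPM, -1.03), while Ccl4 was higher (240 against 119 CPM, 1.01). The other genes past 2-fold were Lta, lower, and Tnip3, higher. None of the 11 inflammasome and gasdermin genes and none of the 15 IL-1 receptor and signalling genes passed 2-fold in either direction.

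In IRF3/7 against CTRL, 30 listed genes were at least 2-fold higher and 8 at least 2-fold lower, with a median of 0.74 beside -0.55 for all genes, of which 9.16% were higher and 32.2% lower. Of 13 NF-kB genes, 7 were higher (Rel, Nfkbia, Nfkbib, Nfkbie, Nfkbiz, Bcl3 and Zfp36) and Tnip3 was lower, and of 15 IL-1 genes, 7 were higher and none lower. Il18bp, which neutralises IL-18, was at 356 against 26.4 CPM (log2 ratio 3.75) and Casp4, the caspase that senses cytosolic lipopolysaccharide, at 253 against 24.6 CPM (3.36). Pf4 (82.4 against 1706 CPM, -4.37), Ppbp (4.70 against 56.2 CPM, -3.58) and the constitutive cyclooxygenase Ptgs1 (5.94 against 62.7 CPM, -3.40) were lower. Of the remaining lists, 4 of 11 inflammasome genes, 5 of 11 TNF genes, 3 of 8 IL-10 genes and 1 of 9 IL-6 family genes were higher, and 1 TNF gene, Lta, was lower. Of 8 genes of the neutrophil chemokine list, Cxcr2, Csf3r and Ccl4 were higher and Ppbp, Pf4 and Cxcr1 lower. Of 12 prostaglandin and cAMP genes, Pde4b was higher and Ptgs1, Ptger2 and Hpgd lower.

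In COX2i + 5-AZA against COX2i, 13 listed genes were at least 2-fold higher and 5 at least 2-fold lower, with a median of 0.28 beside -0.19 for all genes, of which 6.16% were higher and 9.77% lower. Il1r2, the decoy receptor that binds IL-1 without signalling, was at 330 against 68.4 CPM (log2 ratio 2.27), Il18bp at 233 against 37.2 CPM (2.65), Tnfaip2 at 375 against 90.6 CPM (2.05) and Ppbp at 21.0 against 6.22 CPM (1.76). Hpgd, which breaks down prostaglandins, was at 3.17 against 14.8 CPM (-2.22), and the other genes of the prostaglandin and cAMP list past 2-fold were Ptgs2 and Pde4b, both higher. Also higher were Casp4, Osm, Traf1, Tnfaip3, Lta, Cxcr2 and Csf3r, and also lower were Sigirr, Il18r1, Il33 and Osmr. None of the 13 NF-kB genes and none of the 8 IL-10 genes passed 2-fold. Against CTRL, 9 listed genes were higher and 8 lower, with a median of 0.13 beside -0.16 for all genes, of which 5.65% were higher and 11.3% lower. The listed genes furthest from 0 were Il18bp (3.14), Il11 (-2.02), Casp4 (1.78), Hpgd (-1.77) and Il1r2 (1.49).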

How the data were processed

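Live CD45+ cells were fixed and profiled with a probe-based droplet assay (Chromium Fixed RNA), and, per the labels, the 4 probe-barcoded samples were hybridised separately and pooled before droplets were made. The authors deposited raw UMI counts for 34447 cells and 12584 genes, made with Cell Ranger 7.1.0 on mm10 per the submitters' notes, together with cell classes from their own clustering, and these counts were used as deposited. Doublets were not called again here, and cells with 1000 or fewer genes (1201) were kept. The monocyte level joins Infl_Mono with the other 2 monocyte classes, and the macrophage level joins TAM_C1q, TAM_Spp1, TAM_cycling, TAM_H2Ab1, Ctsk_Macro and Macro.

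UMIs were summed per library and class and written as CPM with exact Poisson intervals. Ratios of CPM have exact conditional intervals, shares Clopper-Pearson intervals, and a count of 0 was set to 3 UMIs per library to give a bound. With 1 library a group no test was possible, and a gene counted as higher or lower past 2-fold where the 2 libraries together gave 20 UMIs or more. The ratio code was tested on simulated counts. All 10 members are named. Listed genes are named where they had at least 200 UMIs and were among the 5 largest ratios of a comparison within monocytes and macrophages, and genes of like pattern where among the 3 highest correlations with at least 200 UMIs; others named beside a count were chosen after their values were seen. The members and lists were chosen with earlier results of these data known. Gene positions are from GENCODE (GRCm38). Python 3.11.15, numpy 2.4.6, scipy 1.17.1 and pandas 2.3.3 were used. Alternatives tried were other scaling, cell filters, class mix and thinning.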

Additional observations from a re-analysis of the deposited data

Results flagged for a closer look

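Members that differed by at least 2-fold in opposite directions in 2 or more classes under the same comparison are listed here as log2 ratios. The difference between classes was not tested, since each group is 1 library.

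In IRF3/7 against CTRL, Cxcl2 was at 1.37 in Infl_Mono and -2.37 in cDC2, and Nlrp3 at 1.48 in Infl_Mono and -1.34 in Myofibrobl (25 and 136 UMIs). Nlrp3 in Myofibrobl lay at 5.58 to 14.1 CPM over the libraries, below NK cells (15.7 to 40.1 CPM).

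In COX2i against CTRL, Il6 was at 1.56 in Myofibrobl, 3.29 in cDC2 and -1.62 in TAM_Spp1. In cDC2, 45 of the 47 UMIs of COX2i were in 1 cell, and in TAM_Spp1 the counts were 6 and 28.

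In COX2i + 5-AZA against CTRL, Cxcl1 was at 1.28 in Myofibrobl, 1.41 in neutrophils (31 and 5 UMIs) and -4.81 in Infl_Mono, where 28 of the 31 UMIs of CTRL were in 1 cell. Il10 was at 1.20 in Macro (40 and 9 UMIs) and -4.39 in TAM_Spp1 (6 and 259 UMIs).

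In COX2i + 5-AZA against COX2i, Il6 was at 1.74 in Myofibrobl (109 and 136 UMIs, 68 of the 109 in 1 cell) and 1.33 in TAM_C1q (22 and 10 UMIs). It was at 2.38 in TAM_Spp1 (23 and 6 UMIs) and 1.7 in TAM_cycling (25 and 15 UMIs). In cDC2 it was at -3.20, again set by that 1 cell. Il10 was at 1.24 in TAM_cycling and at -1.10 in Infl_Mono (21 and 7 UMIs, interval -2.39 to 0.37) and -3.40 in TAM_Spp1.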

How the results depend on the processing

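Of 160 recomputed counts of members past 2-fold, 138 stayed within 1.5 times of the reported count and 22 did not. For IRF3/7 against CTRL over all cells, the 3 higher members became 5 with median-of-ratios size factors and 1 (Il6) with the class mix of CTRL, and the 1 lower member became 2 with only cells over 2000 genes, without neutrophils, without the top 5% of UMI counts, without Myofibrobl, without cells holding a Csf3r, Cxcr2 or Retnlg UMI and with the mean over cells, and 3 with the class mix of CTRL. There the Il1b log2 ratio reversed to -0.26, on classes holding 21.3% of its CTRL UMIs, and within monocytes and macrophages it stayed at 2.03. For COX2i against CTRL over all cells, the 1 higher member became 0 with size factors, without Myofibrobl and with the mean over cells, and the 2 lower became 1 with cells over 2000 genes and with the class mix, and 4 without Myofibrobl. Within monocytes and macrophages the 4 lower became 2 (Cxcl1 and Cxcl3) with cells over 2000 genes and with the class mix. For COX2i + 5-AZA against CTRL, the 1 lower member became 0 with cells over 2000 genes in both sets of cells, and with the mean over cells 2 over all cells and 3 within monocytes and macrophages. For IRF3/7 against CTRL within monocytes and macrophages, the 5 higher became 3 with the mean over cells. For COX2i + 5-AZA against COX2i every count stayed within 1.5 times. Of the other recomputed values, mostly single-gene log2 ratios and shares of UMIs, 469 stayed within the reported value's counting interval, which is narrow at these depths, 560 moved outside it and, of the ratios past 2-fold, the Il1b ratio above reversed. Signs of ratios within a factor of 2 also turned, 10 ratios in all changing sign with the class mix, 7 with cells over 2000 genes, 4 without cells holding a Csf3r, Cxcr2 or Retnlg UMI and 1 or 2 under each of the other settings. The cause of each change was not tested. Leaving out Myofibrobl and leaving out cells with neutrophil transcripts were chosen after seeing the data. By total UMIs the median gene lay at -0.29 in IRF3/7 against CTRL over all cells (-0.55 within monocytes and macrophages) and at -0.18 and -0.21 in COX2i + 5-AZA against CTRL and COX2i. With size factors Cxcl1 and Cxcl2 in IRF3/7 against CTRL over all cells turned from -0.01 and -0.02 to 0.28 and 0.27. No paired analysis was possible because each group is 1 library. With 1 library of 3 pooled tumours a group, no difference could be set against the spread between tumours, and depth limits Il6 and, in single classes, Cxcl3 and Il10.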
